A study of Mus musculus with 6 samples.

Results

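Notch receptors, ligands and targets were followed through single cells of the mouse small intestinal mucosa as 9 genes, Notch1, Notch2, Notch3, Dll1, Dll4, Jag1, Hes1, Rbpj and Atoh1, taken by gene symbol from the 32285 features of the count tables. The libraries came from 3 control littermates, whose genotype label is wild-type and which carry floxed HuR alleles without Cre according to the methods, and 3 IE-HuR-/- mice, in which the same floxed alleles meet Cre under the villin promoter, which deletes HuR in intestinal epithelial cells. The mice were young adults, and their intestinal cells were freed with EDTA and trypsin. The labels call the tissue small intestinal epithelium, although blood and immune cells were present in every library. The labels name no treatment, and each is a separate replicate. Villin-Cre acts in epithelium, so that HuR is not targeted in the immune cells that the libraries also hold. The question was which cell classes carry the RNA of each member and whether its level differed between the labels. Raw UMIs (unique molecular identifiers, 1 per captured RNA molecule) were summed per library over cells gated by marker genes, and levels are given as CPM, the UMIs of a gene per 1000000 UMIs of the class in that library.

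The 6 libraries held 60706 barcodes and 428980031 UMIs, between 59518012 and 91818560 UMIs per library, and 60431 cells had at least 200 genes. Over all epithelial cells, Elavl1, which encodes HuR, had 30.4 ± 1.33 CPM with the control label and 31.2 ± 0.757 CPM with the label IE-HuR-/- (SD, n = 3 each), and was called 0.16 higher on the log2 scale (edgeR adjusted p = 0.00731). The RNA of the targeted gene thus gave no check of the labels, gene totals cannot show whether an exon is deleted, and every direction below rests on the labels. Of the barcodes, 435 occurred in more than 1 library, in 870 cells. The gates gave 39201 enterocyte-like, 1210 goblet-like, 245 enteroendocrine-like, 177 tuft-like, 241 progenitor-like and 52 Paneth-like cells, and outside the epithelium 4615 T or NK-like, 1000 erythroid-like, 193 B or plasma-like, 161 myeloid-like, 49 fibroblast-like and 17 plasmacytoid-like cells. A further 4998 epithelial cells fell in none of the epithelial classes. Each class held UMIs of all its own markers, except that myeloid-like cells held 20 of 21 and that the files list 7 of the 8 erythroid markers. The edges of the classes depend on the limit chosen, also that of the largest. Of the 39201 enterocyte-like cells, 18014 lay between the limit and its double. Another 7304 cells lay between 0.5 times the enterocyte-like limit and the limit itself. Among cells of any class, 373 lay between 0.5 times the progenitor-like limit and the limit itself, and 411 did so for the myeloid-like limit. Olfm4, a stem cell gene left out of the progenitor-like gate, had 1330 CPM in progenitor-like and 0.793 CPM in enterocyte-like cells.

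In Notch signalling, a ligand of the Delta or Jagged family on 1 cell binds a Notch receptor on its neighbour, ADAM10 and then gamma-secretase cut the receptor, and the freed intracellular part joins the DNA-binding protein RBPJ and a Mastermind protein to switch on targets such as Hes1. In intestinal crypts Hes1 represses Atoh1, the transcription factor that commits a cell to the secretory lineages, and secretory cells in turn present Dll1 and Dll4 to stem and progenitor cells that carry Notch1 and Notch2. The pathway thereby sets the balance between absorptive and secretory cells.

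Promoter sequences from RefSeq (GRCm38.p6) were on hand for 8 of the 9 members, all but Hes1. The 250 bases before the start site are shown for Dll1 and Jag1, the ligands that fell in enterocyte-like cells, and for Rbpj. The label change of Rbpj differed between enterocyte-like and T or NK-like cells, a call lost without some of the libraries. Dll1 and Rbpj have 2 windows each in that table, and the one with a match, or with more matches, is shown. Capitals mark TGGGAA or its reverse complement TTCCCA, the core that RBPJ binds, and CAGCTG, an E-box of the kind bound by Atoh1.
Dll1 (chr17:15376933-15377182, minus strand): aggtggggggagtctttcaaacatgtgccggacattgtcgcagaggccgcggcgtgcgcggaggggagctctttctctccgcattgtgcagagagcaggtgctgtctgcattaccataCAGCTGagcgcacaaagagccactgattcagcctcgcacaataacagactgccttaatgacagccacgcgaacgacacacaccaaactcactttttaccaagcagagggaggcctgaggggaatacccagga
Jag1 (chr2:137116521-137116770, minus strand): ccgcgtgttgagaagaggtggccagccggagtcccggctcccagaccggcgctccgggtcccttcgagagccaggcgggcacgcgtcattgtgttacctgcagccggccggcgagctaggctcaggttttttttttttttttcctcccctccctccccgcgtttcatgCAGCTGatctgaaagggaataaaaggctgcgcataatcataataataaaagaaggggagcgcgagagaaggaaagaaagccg
Rbpj (chr5:53590096-53590345, plus strand): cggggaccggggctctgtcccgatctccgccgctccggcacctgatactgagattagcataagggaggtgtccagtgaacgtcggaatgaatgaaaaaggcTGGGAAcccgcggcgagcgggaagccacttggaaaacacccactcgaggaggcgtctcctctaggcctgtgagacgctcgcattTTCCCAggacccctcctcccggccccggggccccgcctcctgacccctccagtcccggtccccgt

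The Rbpj window held the RBPJ core at −149 and −65, counted from the start site to the first base of the match with −1 as the base before the start. Among the 8 members with a window, to which the target Hes1 does not belong, this core was found in Rbpj alone, on either strand, which 21.6% of all 32851 windows of this length held. Both windows of Rbpj overlap and share the match nearer the start. These windows lie inside the span of the gene (53555779 to 53657445), so that the bases before the outer end at 53555779 were not searched. The E-box was in the windows of 2 members, at −82 in Jag1 and at −132 in Dll1, and in 4271 of all windows. The marked motifs are matches of letters and do not show binding.

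The receptors were higher in immune and progenitor-like cells than in mature epithelial cells. Notch1 lies on chromosome 2 (26457902 to 26503822, GRCm38.p6) and Notch2 on chromosome 3 (98013538 to 98150367). T or NK-like cells held 51.4% of all Notch1 UMIs, pooled over the 6 libraries, but 5.44% of all UMIs. In them, Notch1 lay between 41.8 and 57.2 CPM, with a median of 48.7 over the 6 libraries. Myeloid-like cells lay between 20.8 and 115 CPM (median 33.5), progenitor-like cells between 9.66 and 35.8 CPM (median 23.8) and tuft-like cells between 0 and 10.7 CPM (median 7.10). Enterocyte-like cells had 0.636 ± 0.109 CPM of Notch1 (SD, n = 6), against 0.660 ± 0.959 CPM in erythroid-like cells, which should lack it and serve here as the measure of free RNA. Notch1 in enterocyte-like cells was thus not above this measure. The measure is rough, as it rested on 3 Notch1 UMIs in cells with 80.7% of their UMIs on erythroid markers. Each neighbouring pair of classes in the order of the Notch1 level overlapped within the sum of the SDs. With the library as a block, Notch1 was 5.34 (standard error 0.189) higher on the log2 scale in T or NK-like than in enterocyte-like cells (edgeR adjusted p = 3.82e-40), 5.17 (SE 0.431) higher in myeloid-like, 4.20 (SE 0.335) in progenitor-like and 2.50 (SE 0.458) in tuft-like cells.

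Among the classes with enough cells for a test, Notch2 was highest in myeloid-like cells. It lay there between 36.6 and 131 CPM with a median of 84.9 over the 6 libraries. B or plasma-like cells followed with 29.6 ± 10.9 CPM, T or NK-like cells with 14.1 ± 2.45 CPM and progenitor-like cells with 11.3 ± 9.26 CPM (SD, n = 6 each), of which the last pair did not differ beyond their SDs. Enterocyte-like cells had 0.817 ± 0.191 CPM of Notch2, above the 0.114 ± 0.279 CPM of erythroid-like cells, which rested on 1 UMI. The 49 fibroblast-like cells, too few per library for a test, held 40 Notch2 UMIs. This was 89.3 CPM pooled, beside 80.5 CPM pooled in myeloid-like cells. Against enterocyte-like cells, Notch2 was higher by 5.74 (SE 0.331) in myeloid-like, 4.47 (SE 0.494) in B or plasma-like, 3.16 (SE 0.232) in T or NK-like and 2.75 (SE 0.417) in progenitor-like cells on the log2 scale. T or NK markers made up 0.0857% of progenitor-like UMIs and 7.59% of T or NK-like UMIs, and their part in the receptor levels of progenitor-like cells was not tested. Notch3, a receptor known best from vascular smooth muscle, had 30 UMIs in all cells, of which 6 came from the 17 plasmacytoid-like cells and 9 from epithelial cells. T or NK-like cells had none among 23299501 UMIs, which allows up to 0.129 CPM.

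**Figure D1:**
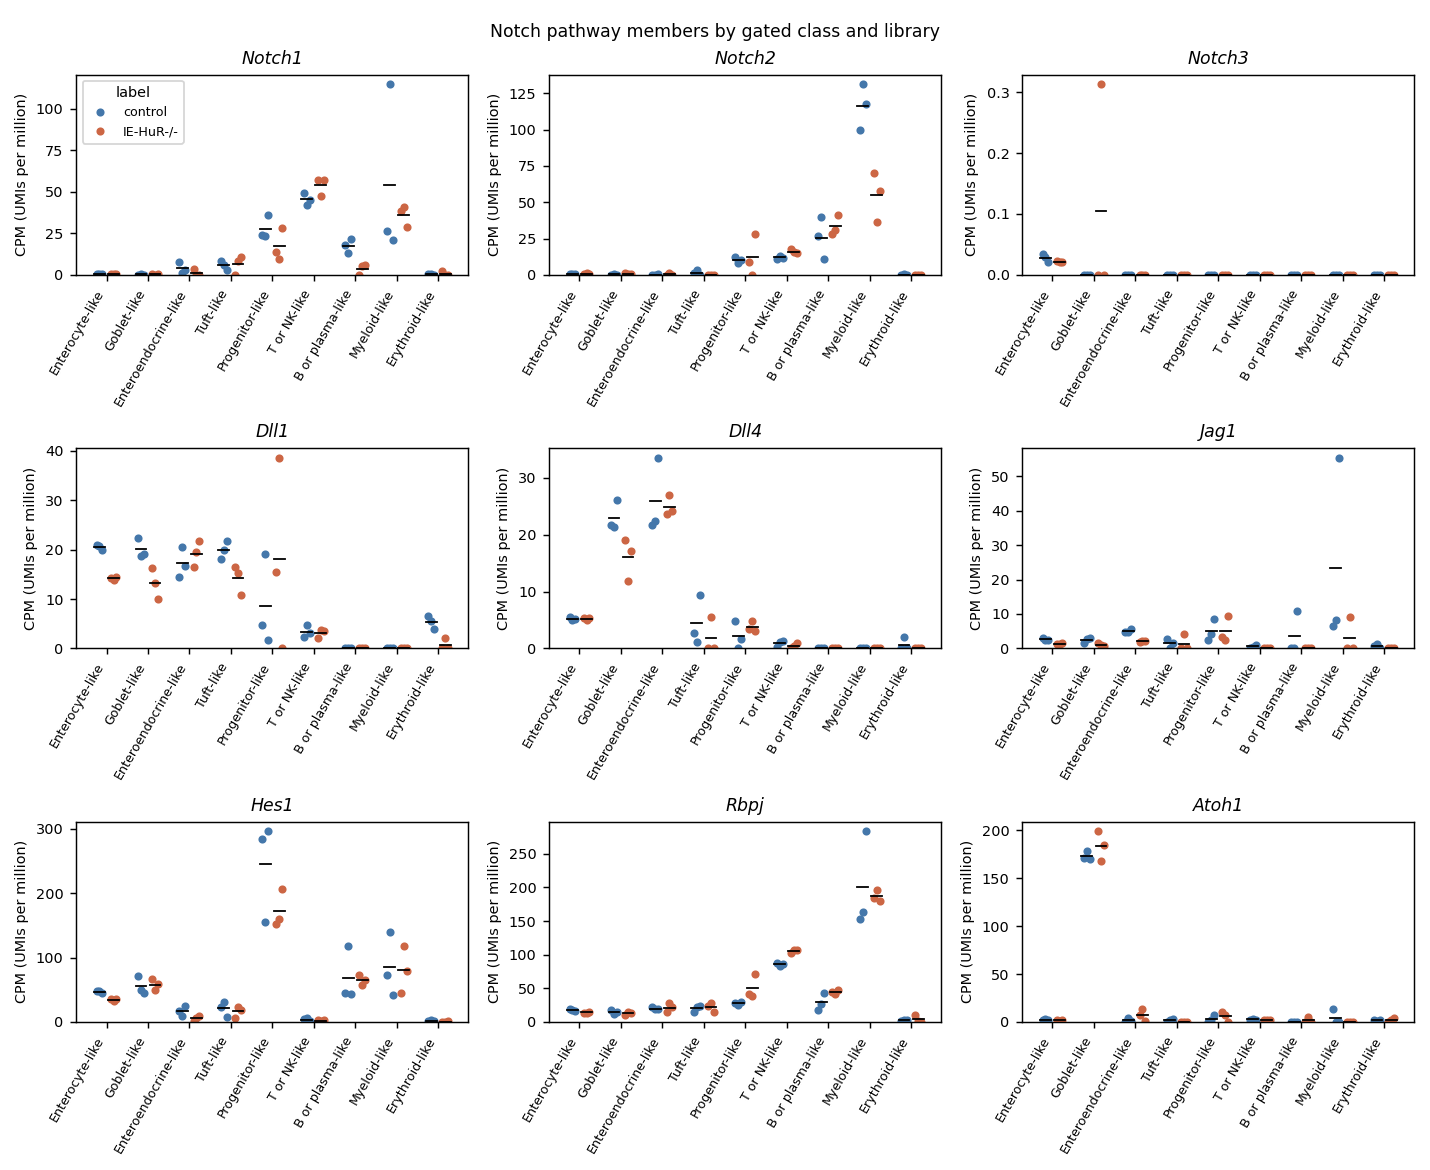
CPM of the 9 members (1 panel each, y axes differ) in 9 gated classes, with a point per library in the colour of its label and a line at the mean of 3 libraries. Atoh1 stood apart in goblet-like cells (168 to 199 CPM), Notch1 and Notch2 were near 0 in enterocyte-like cells, and Rbpj was highest in myeloid-like cells.

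The Delta ligands, Dll1 on chromosome 17 (15367354 to 15376932) and Dll4 on chromosome 2 (119325784 to 119335666), were epithelial. Of their UMIs, 95.8% for Dll1 and 97.3% for Dll4 came from epithelial cells, which held 87.0% of all UMIs. Dll1 had about the same level in every mature epithelial class, 18.2 ± 2.82 CPM in enteroendocrine-like, 17.4 ± 3.499 in enterocyte-like, 17.1 ± 3.86 in tuft-like and 16.6 ± 4.43 CPM in goblet-like cells (SD, n = 6), with no neighbours apart beyond their SDs. Dll4 was higher in enteroendocrine-like (25.4 ± 4.39 CPM) and goblet-like cells (19.5 ± 4.78 CPM) than in enterocyte-like cells (5.21 ± 0.160 CPM). Tuft-like cells, which the study also counts as secretory, had 3.14 ± 3.68 CPM. On the TMM scale, which sets the bulk of genes level between classes, Dll4 was 1.86 (SE 0.160) higher in goblet-like and 1.45 (SE 0.197) higher in enteroendocrine-like than in enterocyte-like cells. Dll1 was lower by this test in enteroendocrine-like cells (−0.77, SE 0.214), a direction that turned to 0.049 without TMM. It was also not called without control replicate 1 (−0.53) or 2 (−0.49). With TMM, both ligands were called lower than in enterocyte-like cells in tuft-like (Dll1 −0.83, Dll4 −1.38) and progenitor-like cells (Dll1 −1.30, Dll4 −1.78). Without TMM none of these 4 differences was called (tuft-like Dll1 −0.033 and Dll4 −0.60, progenitor-like Dll1 −0.39 and Dll4 −0.88). Dll1 in tuft-like cells was also not called with any 1 of the 6 libraries left out (−0.63 to −0.47), and Dll4 not with control replicate 1 (−1.03), control replicate 2 (−0.80) or the first (−0.96) or the third (−0.91) IE-HuR-/- library left out. Neither ligand had a UMI among the 821413 UMIs of B or plasma-like or the 931363 UMIs of myeloid-like cells, which allows up to 3.65 and 3.22 CPM. The T or NK-like level of Dll1, 3.24 ± 0.952 CPM, was close to that of erythroid-like cells at 2.98 ± 2.75 CPM. By label, erythroid-like cells had 5.27 ± 1.31 CPM in the control libraries (20 UMIs) and 0.693 ± 1.20 CPM in those labelled IE-HuR-/- (1 UMI). T or NK-like cells had 3.36 ± 1.23 and 3.13 ± 0.851 CPM (SD, n = 3 each). The level is therefore read as background in the control libraries only.

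Jag1 (chromosome 2, 137081451 to 137116520) was low throughout the epithelium, with 2.03 ± 0.718 CPM in enterocyte-like cells, 3.56 ± 1.64 CPM in enteroendocrine-like and 5.07 ± 3.10 CPM in progenitor-like cells (SD, n = 6). Of the 17 Jag1 UMIs in fibroblast-like cells 15 came from control replicate 1 and the other 2 from IE-HuR-/- replicate 1, so that no level is given for them. In myeloid-like cells it lay between 0 and 55.4 CPM with a median of 7.43, so that 1 library, control replicate 3, carried most of it.

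Hes1 (chromosome 16, 30065357 to 30067796), the repressor that Notch switches on, was highest in progenitor-like cells. The 6 libraries lay between 153 and 297 CPM with a median of 183, and the difference from enterocyte-like cells was 1.46 (SE 0.186) on the log2 scale (edgeR adjusted p = 1.49e-09). Goblet-like cells, with 56.8 ± 10.6 CPM, and enterocyte-like cells, with 40.7 ± 7.39 CPM, overlapped within their SDs, though the blocked fit placed goblet-like cells 0.46 (SE 0.169) higher (adjusted p = 0.0229). Myeloid-like cells had 82.8 ± 39.5 CPM and B or plasma-like cells 66.9 ± 27.9 CPM. With TMM scaling, neither was called different from enterocyte-like cells (log2 difference 0.17, edgeR adjusted p = 0.661, and 0.0021, adjusted p = 0.998). Both means were above the 40.7 CPM of enterocyte-like cells, and these differences were not read without TMM. Equal levels are thus not shown. Tuft-like cells had 18.8 ± 9.81 CPM, enteroendocrine-like cells 11.3 ± 8.43 CPM and T or NK-like cells 2.93 ± 1.62 CPM. Against enterocyte-like cells the log2 differences of these 3 classes were −1.81, −2.49 and −4.69, each called.

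Rbpj (chromosome 5, 53555779 to 53657445), the DNA-binding partner of cleaved Notch, had 194 ± 46.7 CPM in myeloid-like and 95.9 ± 11.1 CPM in T or NK-like cells, and 15.8 ± 2.27 CPM in enterocyte-like cells. Its excess over enterocyte-like cells was 2.72 (SE 0.171) and 1.68 (SE 0.116) on the log2 scale. In enteroendocrine-like cells Rbpj was called lower (−0.43), but was at 0.39 without TMM and was not called without any of 5 libraries, the other being IE-HuR-/- replicate 2.

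Atoh1 (chromosome 6, 64729125 to 64731245) marked goblet-like cells, although it was not among the 12 genes of their gate. They held 81.7% of its UMIs and 6.04% of all UMIs. The 6 libraries lay between 168 and 199 CPM with a median of 175, against 1.99 ± 0.489 CPM in enterocyte-like and 1.83 ± 1.36 CPM in erythroid-like cells, and the difference from enterocyte-like cells was 6.46 (SE 0.170) on the log2 scale (edgeR adjusted p = 2.97e-43). At least 1 Atoh1 UMI was found in 71.4% of goblet-like cells (median 16753.5 UMIs per cell), 1.37% of enterocyte-like cells (median 1611 UMIs) and 0.800% of erythroid-like cells (median 4898.5 UMIs). After each cell was thinned to 2000 UMIs, with shallower cells left out (230 goblet-like, 21379 enterocyte-like and 112 erythroid-like), the shares were 34.4%, 0.477% and 0.113%. Enteroendocrine-like cells, which also belong to the secretory lineage, had 4.60 ± 5.30 CPM. Tuft-like cells had 0.908 ± 1.43 CPM. T or NK-like cells were called lower than enterocyte-like cells in Atoh1 (−0.77), yet were at 0.16 without TMM and at 2.23 ± 0.615 CPM, and both classes were near the background of free RNA.

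Goblet-like cells with and without an Atoh1 UMI had similar levels of the ligands. The 864 cells with it had 17.3 CPM of Dll1, 20.3 CPM of Dll4 and 56.1 CPM of Hes1, and the 346 cells without it had 17.4, 18.2 and 67.1 CPM, pooled over the libraries. The groups differed in depth, with medians of 23466.5 and 1637.5 UMIs per cell, and the difference was not tested.

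Of the 8 members tested in each class contrast, the number called was 3 in goblet-like (background over all 13324 genes 41.8%), 5 in progenitor-like (64.8%), 6 in enteroendocrine-like (66.8%), 4 in tuft-like (55.1%), 8 in T or NK-like (80.6%), 4 in B or plasma-like (55.3%) and 6 in myeloid-like cells (58.3%). Notch3 was too low to be tested. The calls in B or plasma-like and myeloid-like cells included Dll1 and Dll4, which had no UMI there. The counts are to be read against these shares. The log2 differences between classes above are a description on the TMM scale and depend on it. Without TMM, Dll1 in enteroendocrine-like cells moved from −0.77 to 0.049 and Atoh1 in T or NK-like cells from −0.77 to 0.16. The differences can lie below what the CPM values give, as for Hes1 in progenitor-like cells (1.46, at 209 against 40.7 CPM). For Atoh1 in goblet-like cells, 6.46 lay outside the range with 1 library left out (6.57 to 6.74). The same held there for Dll4 (1.86, range 1.94 to 2.13) and Hes1 (0.46, range 0.54 to 0.72). In tuft-like cells it held for Notch1 (2.50, range 2.59 to 2.99), Hes1 (−1.81, range −1.64 to −1.37) and Dll1 (−0.83, range −0.63 to −0.47). The size of these differences thus depends on the set of libraries fitted. The 52 Paneth-like cells, between 5 and 12 per library, were too few for a test. They held no UMI of Notch1, Notch2, Notch3, Dll1, Dll4, Rbpj or Atoh1 among 86235 UMIs, which allows up to 34.8 CPM of each. This depth cannot show whether the niche ligands are present in them. Enterocyte markers made up 5.01% of their UMIs and Paneth markers 5.74%, at a median of 780 UMIs per cell. In enterocyte-like sums, enterocyte markers made up 5.76% to 6.33%. With doubled gate limits, or at 2000 UMIs or more, the library with the fewest Paneth-like cells held 0. Whether the gate holds Paneth cells was not tested.

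The genes most like each member were taken by Pearson's r of log2(CPM + 1) over 59 class and library sums, among 12703 genes, as a description, since sums of a library share its depth. For Atoh1 they were Ptgdr (0.88), Wincr1 (0.87) and Creb3l4 (0.87). For Dll4 they were Fgfr3 (0.90), Tbc1d30 (0.89) and 5330417C22Rik (0.88), and for Dll1 Tmem139 (0.90), Marveld3 (0.86) and Ccdc114 (0.86). Notch2 was nearest to Emp3 (0.93), Zeb2 (0.92) and Gm2a (0.92), Notch1 to Mfsd10 (0.85), Vrk1 (0.84) and Hat1 (0.83), and Rbpj to Npc2 (0.93), Tspo (0.93) and Cdk2ap2 (0.91). Hes1 (Ifi30, Pkig and Ctsh, 0.74 to 0.78) and Jag1 (Spred1, Kctd6 and Vegfc, 0.66 to 0.72) had no gene as near.

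Between the labels, 2 ligands and the target Hes1 fell in enterocyte-like cells of the libraries labelled IE-HuR-/-. Of the 9 members 8 passed the filter on low counts there, 3 were called lower and 1 higher, against 58.7% of all genes tested. Dll1 had 21.0, 20.8 and 19.8 CPM in the control libraries and 14.3, 14.0 and 14.4 CPM in those labelled IE-HuR-/-. All libraries of 1 label lay above all of the other, and the log2 fold change was −0.34 (SE 0.0539, edgeR adjusted p = 2.87e-06). In sums of this kind, fewer cells with the RNA and less RNA per cell cannot be told apart. Jag1 had 3.02, 2.44 and 2.47 CPM in the control libraries and 1.27, 1.32 and 1.63 CPM in the others, again without overlap, which gave −0.72 on the log2 scale (SE 0.147, edgeR adjusted p = 0.000122). Hes1 had 48.7, 48.7 and 44.4 CPM against 35.1, 32.3 and 35.3 CPM, or −0.28 on the log2 scale (SE 0.0475, edgeR adjusted p = 9.68e-06), and its libraries did not overlap either. These 3 calls held under each of the 15 alternatives run, none of which removed free RNA. In erythroid-like cells, the measure of free RNA, Dll1 had 5.27 ± 1.31 CPM in the control libraries (20 UMIs). It had 0.693 ± 1.20 CPM there in those labelled IE-HuR-/- (1 UMI). Hes1 had 2.00 ± 1.27 and 0.644 ± 1.12 CPM in erythroid-like cells (SD, n = 3 each). The part of free RNA in the changes of enterocyte-like cells was not tested.

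Notch2 rose in enterocyte-like cells by the same test, from 0.576, 0.733 and 0.839 CPM to 0.850, 1.15 and 0.752 CPM, with a log2 fold change of 0.56 (SE 0.228, edgeR adjusted p = 0.0372). It rested on 252 UMIs in 6 libraries that overlapped. The call was lost without TMM (0.37, adjusted p = 0.161), with DESeq2 (adjusted p = 0.112) and without control replicate 1 (0.40), control replicate 2 (0.55) or the second IE-HuR-/- library (0.35). Dll4 (0.18, adjusted p = 0.0649), Rbpj (−0.13, adjusted p = 0.0879), Notch1 (−0.07) and Atoh1 (−0.01) did not pass. Rbpj was called lower without TMM (−0.32, adjusted p = 0.000266), without the filter on low counts (−0.17, adjusted p = 0.0175), in cells of 500 genes or more with mitochondrial UMIs up to 25% (−0.16, adjusted p = 0.0382) and without control replicate 3 (−0.21, adjusted p = 0.00555). Dll4 was called higher in cells of 2000 UMIs or more (0.24, adjusted p = 0.0171). Without TMM the median log2 fold change of all genes in enterocyte-like cells was −0.20, against −0.0082 with it, so that plain CPM values of most genes were lower with this label. The changes here are relative to that shift. By CPM, Rbpj also lay lower in all of these libraries, with 13.7, 13.4 and 15.1 CPM against 19.4, 17.4 and 15.9 CPM.

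**Figure D2:**
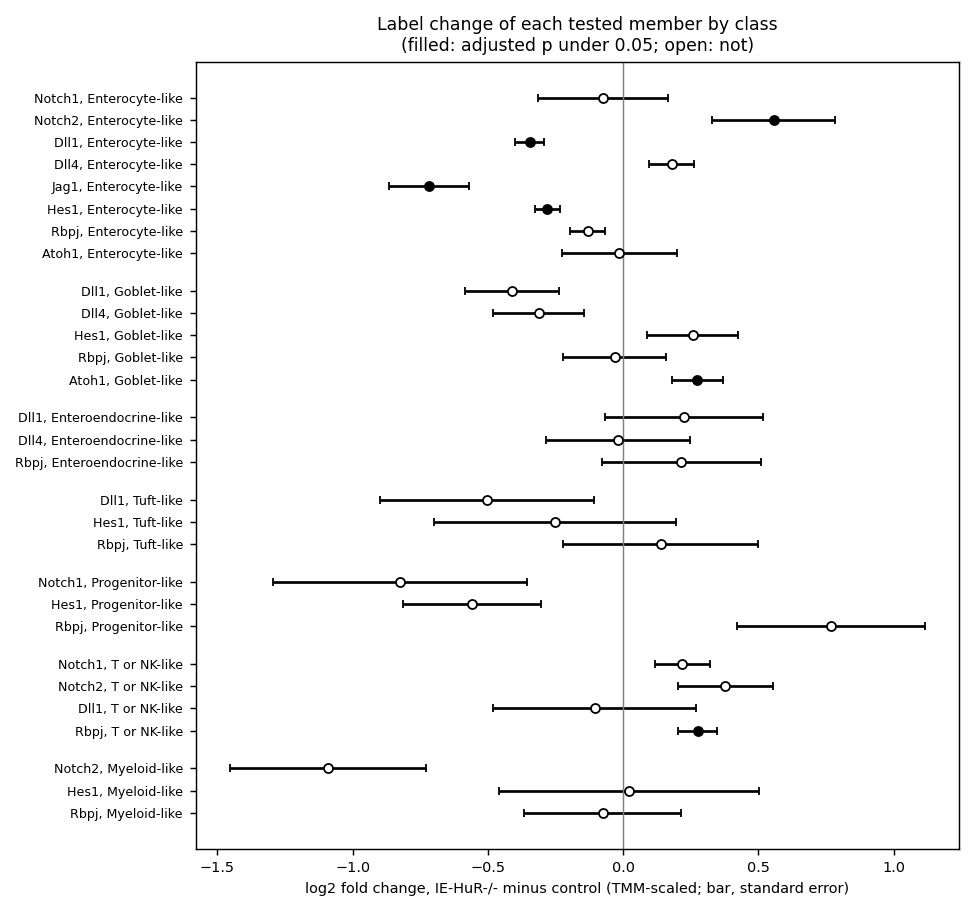
Log2 fold change between the labels (x axis, TMM-scaled, bars are standard errors) for each member tested in each of 7 classes. Filled points had an edgeR adjusted p under 0.05, which were Notch2, Dll1, Jag1 and Hes1 in enterocyte-like, Atoh1 in goblet-like and Rbpj in T or NK-like cells.

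Over all epithelial cells, most of which are enterocyte-like, the same 3 members were called lower and none higher, of 8 tested (51.8% of all genes). Dll1 was at −0.40 (SE 0.0468), Jag1 at −0.76 (SE 0.126) and Hes1 at −0.28 (SE 0.0489) on the log2 scale. Atoh1 had 15.1 ± 0.120 CPM in the control libraries and 14.3 ± 3.27 CPM in the others (SD, n = 3), a log2 fold change of 0.05 (SE 0.175) that did not pass. In enterocyte-like sums, the 10 epithelial markers made up 1.33% to 1.38% of UMIs in the control libraries and 1.72% to 1.80% in the others, and enterocyte markers 5.76% to 6.05% and 6.05% to 6.33%. Progenitor markers made up 0.00752% to 0.00791% of UMIs in the control libraries and 0.00719% to 0.00760% in the others, goblet markers 0.120% to 0.179% and 0.0973% to 0.145%, and T or NK markers 0.0163% to 0.0296% and 0.0244% to 0.0297%. B or plasma markers were at 0.000224% to 0.000427% in the control libraries and 0.000994% to 0.00124% in the others, and myeloid markers at 0.0371% to 0.0376% and 0.0326% to 0.0333%. Their part in the result was not tested.

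In goblet-like cells, Atoh1 was the only member called, of 5 tested (Notch1, Notch2, Notch3 and Jag1 were too low) and against 27.3% of all genes. It had 172, 179 and 170.2 CPM in the control libraries and 199, 168 and 185 CPM in those labelled IE-HuR-/-, which overlapped. The log2 fold change was 0.27 (SE 0.0950, edgeR adjusted p = 0.0348). Without TMM it was 0.086 (adjusted p = 0.502), as the median of all genes in goblet-like cells was then at −0.20. It was also lost with DESeq2 (adjusted p = 0.0578) and without control replicate 1 (0.25), control replicate 2 (0.31), control replicate 3 (0.25), or without the first (0.22) or the third (0.26) library labelled IE-HuR-/-. Enterocyte markers made up 3.38% to 3.62% of goblet-like UMIs in the control libraries and 2.35% to 3.03% in the others, and goblet markers 20.5% to 23.1% and 20.9% to 26.2%. Epithelial markers (1.58% to 1.61% and 2.04% to 2.18%), enteroendocrine markers (0.0248% to 0.0342% and 0.0366% to 0.0381%), tuft markers (0.00116% to 0.00168% and 0.00243% to 0.00298%) and progenitor markers (0.00801% to 0.00957% and 0.00629% to 0.00666%) also separated by label. Their part was not tested. Dll1 had 22.4, 18.7 and 19.1 CPM against 16.4, 13.2 and 10.1 CPM (−0.41, SE 0.174, adjusted p = 0.0832), and Dll4 21.7, 21.3 and 26.0 CPM against 19.0, 11.9 and 17.1 CPM (−0.31, SE 0.167, adjusted p = 0.175). Neither ligand overlapped between the labels in plain CPM, where the median log2 fold change of all genes was −0.20, and neither passed. Without TMM both were called lower (Dll1 −0.60, adjusted p = 0.0113, and Dll4 −0.50, adjusted p = 0.0232), as was Dll1 without IE-HuR-/- replicate 1 (−0.61, adjusted p = 0.0291). Hes1 (0.26, SE 0.167) and Rbpj (−0.03, SE 0.191) did not pass, though Hes1 was called higher without control replicate 1 (0.47, adjusted p = 0.0215).

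**Figure D3:**
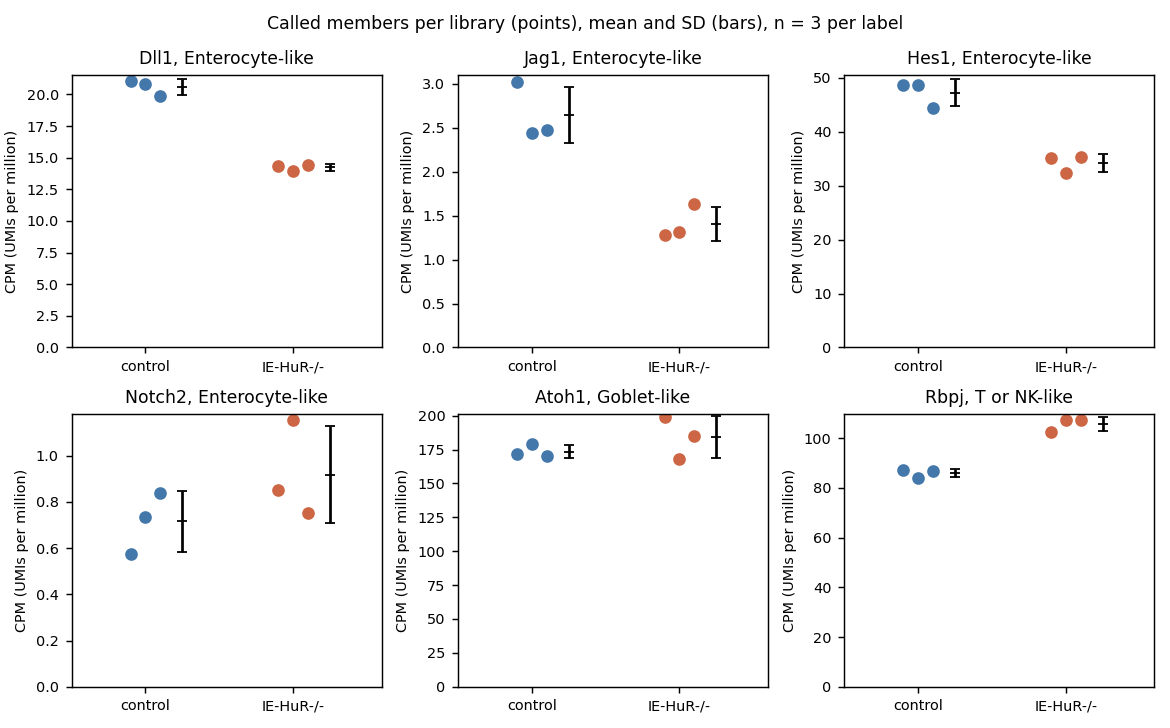
CPM per library of the 6 members called in a class (points, y axes from 0 and different between panels), with mean and SD beside them, n = 3 libraries per label. Dll1, Jag1 and Hes1 in enterocyte-like cells and Rbpj in T or NK-like cells separated by label, while Notch2 in enterocyte-like and Atoh1 in goblet-like cells overlapped.

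In progenitor-like cells no member of 3 tested was called (0.145% of all genes). Among the epithelial classes, the means of Notch1, Notch2 and Hes1 were highest there. The edgeR fit called 8 genes in all, with 290 at an unadjusted p under 0.05, and DESeq2 called 15. Hes1 had 285, 156 and 297 CPM in the control libraries and 153, 159 and 206 CPM in the others (−0.56, SE 0.255, adjusted p = 0.941). Notch1 had 24.1, 23.4 and 35.8 CPM against 13.7, 9.66 and 28.1 CPM (−0.83, SE 0.469, adjusted p = 0.968). Rbpj had 29.0, 25.6 and 29.0 CPM against 41.2, 38.6 and 71.9 CPM, with no overlap (0.77, SE 0.346, adjusted p = 0.941). The class held between 15 and 56 cells per library. Without control replicate 2, Hes1 was called lower (−0.79, adjusted p = 0.0344), in a fit that called 189 genes.

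No member was called in enteroendocrine-like cells (3 tested, 1.21% of all genes) or tuft-like cells (3 tested, 2.67%). In enteroendocrine-like cells Hes1 and Jag1 did not pass the filter on low counts. Hes1 had 16.8, 9.35 and 25.1 CPM in the control libraries and 1.82, 5.40 and 9.17 CPM in the others, on 81 UMIs in all. Jag1 had 4.80, 4.67 and 5.59 CPM against 1.82, 2.16 and 2.29 CPM on 24 UMIs. Neither overlapped between the labels, and neither was tested. In tuft-like cells Dll1 had 18.1, 19.9 and 21.8 CPM against 16.6, 15.3 and 10.7 CPM (−0.50, SE 0.396, adjusted p = 0.627).

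Among immune cells, Rbpj rose in T or NK-like cells, the only member called of 4 tested (4.91% of all genes). It had 87.0, 84.0 and 86.6 CPM in the control libraries and 103, 107 and 107 CPM in those labelled IE-HuR-/-, without overlap, or 0.28 on the log2 scale (SE 0.0712, edgeR adjusted p = 0.0244). The call was lost with DESeq2 (adjusted p = 0.353) and without control replicate 1 (adjusted p = 0.0907) or without the first (0.0734), the second (0.119) or the third (0.121) library labelled IE-HuR-/-. Notch1 had 49.6, 41.8 and 44.8 CPM against 57.1, 47.8 and 57.2 CPM (0.22, adjusted p = 0.270), and Notch2 had 11.1, 13.3 and 11.8 CPM against 17.5, 15.8 and 14.8 CPM (0.38, adjusted p = 0.270). Myeloid markers made up 0.161% to 0.179% of T or NK-like UMIs in the control libraries and 0.124% to 0.128% in the others, epithelial markers 0.0972% to 0.170% and 0.127% to 0.137%, and plasmacytoid markers 0.0256% to 0.0300% and 0.0331% to 0.0365%. Their part was not tested.

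The label change of Rbpj differed between T or NK-like and enterocyte-like cells. In 1 fit over both, the change in T or NK-like cells exceeded that in enterocyte-like cells by 0.42 on the log2 scale (SE 0.0914, edgeR adjusted p = 0.0100), and 14.3% of all genes tested had such a difference. It was lost without control replicate 1 (0.35, adjusted p = 0.0718) or without the first (0.37, adjusted p = 0.0622) or second (0.31, adjusted p = 0.105) library labelled IE-HuR-/-. For the other 7 members tested the difference did not pass, among them Hes1 (−0.54, SE 0.425) and Notch1 (0.31, SE 0.226).

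In myeloid-like cells none of 3 members tested was called (1.22% of all genes). Notch2 had 99.8, 131 and 118 CPM in the control libraries and 70.0, 36.6 and 57.5 CPM in the others, without overlap (−1.09, SE 0.361, adjusted p = 0.214). Myeloid markers made up 2.52% to 3.30% of these sums in the control libraries and 1.67% to 2.92% in the others. No member passed the filter in B or plasma-like cells, where 5.61% of the genes tested were called.

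Other genes of the pathway were taken from 8 lists with 86 genes. In enterocyte-like cells 64 passed the filter, of which 18 were called higher, 13 lower and 33 not called, a share of 48.4% beside the 58.7% of all genes, and the median log2 fold change was 0.06. Of the genes called higher 7 and of those called lower 13 were still called the same way without TMM, and 3 of those called higher turned in sign. Lower were Maml3, a Mastermind coactivator (4.22 to 1.36 CPM, mean of 3 libraries each, log2 fold change −1.44), Nrarp, a target that feeds back on Notch (5.25 to 1.91 CPM, −1.27), Hes2 (28.4 to 13.5 CPM, −0.88) and Pofut1, which adds the fucose that receptors need (5.27 to 2.75 CPM, −0.75). The gamma-secretase genes Aph1b (3.24 to 1.76 CPM, −0.69) and Psen2 (2.06 to 1.14 CPM, −0.66) and the RNA-binding protein gene Msi2 (13.6 to 7.61 CPM, −0.65) were lower as well. Each of these 7 calls was kept under every alternative. In plain CPM all 13 genes called lower separated by label, as did 9 of the 18 called higher. These genes were picked by a test on the same libraries, and the median log2 fold change of all genes without TMM was −0.20. Their separation is therefore a description only and adds no support. Of the secretory lineage factors, Sox4 (−1.04) and Creb3l4 (−0.73) were called lower, the first except with doubled gate limits. Over the 6 libraries Sox4 had 1.17 CPM in enterocyte-like and 1.07 CPM in erythroid-like cells, against 332 CPM in enteroendocrine-like cells. Creb3l4 had 0.499 CPM in enterocyte-like and 0.114 CPM in erythroid-like cells, against 24.4 CPM in goblet-like cells. The part of free RNA in these changes was not tested. Creb3l4 lost its call under 4 alternatives, among them leaving out control replicate 2 or IE-HuR-/- replicate 1.

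The 15 other genes called higher in enterocyte-like cells lay between 0.14 and 0.46 on the log2 scale. The 3 with larger changes were on the target list and are known to answer to other signals too. Ccnd1, which encodes cyclin D1, rose from 1.24 to 4.98 CPM (log2 fold change 2.18, SE 0.126, edgeR adjusted p = 4.75e-15). Over the 6 libraries Ccnd1 had 3.11 CPM in enterocyte-like, 2.86 CPM in goblet-like and 1.93 CPM in erythroid-like cells. Progenitor-like cells had 229 CPM and myeloid-like cells 107 CPM of it. The part of free RNA or of stray cells in the change of Ccnd1 was not tested. The cell cycle inhibitor gene Cdkn1a rose from 324 to 422 CPM (0.57) and Klf4, a factor of differentiated epithelium, from 686 to 872 CPM (0.53). These 3 were separated by label and were called under every alternative, also without TMM.

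In goblet-like cells 50 of the 86 genes passed the filter, with 9 higher, 5 lower and 36 not called (28.0%, beside 27.3% of all genes) and a median log2 fold change of 0.09. Without TMM, 4 of the genes called higher and 5 of those called lower were still called the same way. Among 8 secretory lineage factors tested 3 were higher and 1 lower. Spdef, a goblet cell factor downstream of Atoh1, had 57.8, 54.1 and 72.3 CPM in the control libraries and 75.9, 73.6 and 83.4 CPM in the others (0.53, SE 0.112, edgeR adjusted p = 0.000966), without overlap, and was called under every alternative. Foxa1 rose from 16.8 to 21.6 CPM (0.55), a call lost without TMM (0.36), and Sox4 fell from 8.23 to 3.25 CPM (−1.16). The ligand ubiquitin ligases Neurl1a and Neurl1b moved apart, Neurl1a from 10.2 to 18.0 CPM (0.98) and Neurl1b from 18.1 to 10.3 CPM (−0.64). Maml3 (−2.04), Hes2 (−1.25) and Pofut1 (adjusted p = 0.0132) were lower and Ccnd1 (2.31), Cdkn1a (0.49), Adam10 (0.39) and Klf4 (0.37) higher in goblet-like cells, of which Adam10 and Klf4 were not called without TMM, Pofut1 not without control replicate 1 or IE-HuR-/- replicate 2, and Klf4 not without control replicate 3.

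**Figure D4:**
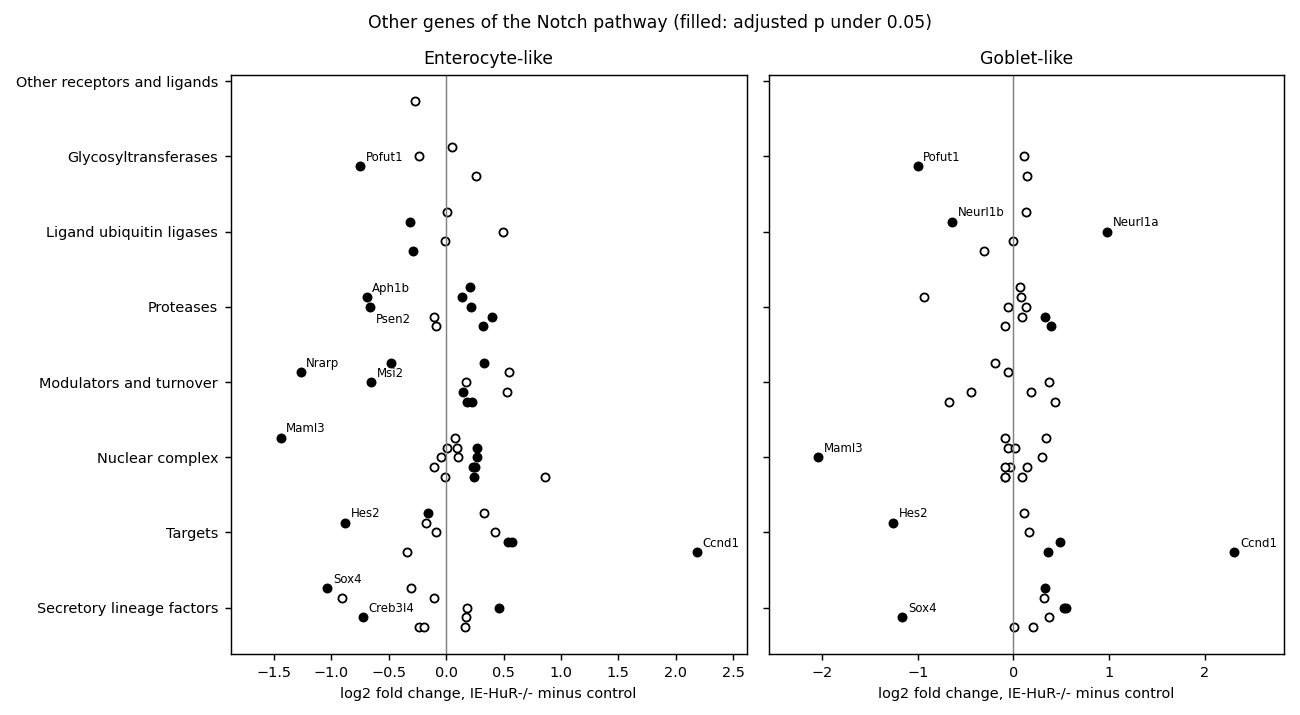
Log2 fold change between the labels (x axis, TMM-scaled) of each tested gene of 8 pathway lists (y axis) in enterocyte-like and goblet-like cells, with filled points for an edgeR adjusted p under 0.05 and names for called genes past 0.6 in size. Ccnd1 lay at 2.18 and 2.31, and Maml3, Hes2 and Pofut1 lay below 0 in both classes.

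In T or NK-like cells 51 genes of the lists passed the filter, 2 were higher and 3 lower (9.80%, beside 4.91% of all genes), with a median of 0.03. Dtx1, an E3 ligase of the Notch pathway, rose from 208 to 251 CPM (0.25) and Msi2 from 61.9 to 77.8 CPM (0.30), while Heyl fell from 59.7 to 47.6 CPM (−0.35), Hes2 from 3.80 to 1.02 CPM (−1.91) and Creb3l1 by 0.76 on the log2 scale. All 5 were separated by label, which adds no support, as they were picked by a test on the same libraries. None of the 5 kept its call under every alternative. Over the 6 libraries Hes2 had 2.41 CPM in T or NK-like cells, close to the 1.74 CPM of erythroid-like cells, against 20.9 CPM in enterocyte-like cells. The part of free RNA in its change was not tested. Msi2 was also the only listed gene called in tuft-like cells, where it rose from 142 to 247 CPM (0.78), a call lost with doubled gate limits and without control replicate 2 or the first IE-HuR-/- library. It was also called in B or plasma-like cells (1.52, with libraries that overlapped), and not without TMM (1.18), without the filter on low counts or without control replicate 2 or 3. No listed gene was called in progenitor-like (28 tested), enteroendocrine-like (46 tested) or myeloid-like cells.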

How the data were processed

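Single-cell suspensions of the small intestinal mucosa were sequenced as 6 droplet libraries. For each library the authors deposited UMI counts by gene and barcode, unnormalized and with at least 500 UMIs per barcode. Per the file headers they came from CellRanger 6.1.2 with mouse genes, the labels give mm10 and a 5′ kit, and the methods name other versions, a 3′ kit and a human reference. Cells with at least 200 genes entered a class with at least 3 distinct markers and a share of UMIs on them past a limit, set on all libraries pooled, blind to label and members. The 1581 cells in 2 gates and the 6691 in none were left out of the classes, and no doublet caller was run. Another 4998 epithelial cells fell in no epithelial class. They entered only the sums over all epithelial cells, as did cells in 2 epithelial gates. Counts were summed per library and class, and classes with under 10 cells in a library were not tested. Sums were compared by the robust quasi-likelihood test of edgeR 4.0.16 under R 4.3.3 (filterByExpr at 10 per library and 15 in total, TMM scaling, Benjamini-Hochberg over all genes of the class, threshold 0.05). Class contrasts and the class by label difference had the library as a block. The labels number the libraries as replicates, and the study's legends speak of 3 animals, so that 1 library per animal was assumed. The p-values measure the spread between these libraries. Alternatives were DESeq2 1.42.0, no TMM, no filter on low counts, a replicate block, doubled gate limits, cells of 500 genes or more with mitochondrial UMIs up to 25%, cells of 2000 UMIs or more, sums thinned to the lowest, each library left out and, added after seeing the data, cells with a shared barcode left out. The full set of alternatives was run for the label changes only. Class contrasts were refitted without TMM, with doubled gate limits and with each library left out. The class by label difference was refitted without TMM and with each library left out. All 9 members were described in each class, and of the pathway lists at most 12 called genes per class were named by size of change. Members, lists and markers were chosen with earlier results of these data known. Limits from counts of 0 use 3 UMIs and cover counting error only. Overlap of libraries between the labels was read in plain CPM. The share of all genes that did not overlap is not given, so that separation by label is a description. For called genes it comes from the same libraries as the call. Immunostaining, immunoblots and organoids of the study were not analysed here.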

Additional observations from a re-analysis of the deposited data

Results flagged for a closer look

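The label change of Rbpj in T or NK-like cells minus that in enterocyte-like cells was 0.42 on the log2 scale, and this difference between the classes passed the test of the difference itself (edgeR adjusted p = 0.0100). Rbpj had 85.9 ± 1.67 CPM in T or NK-like cells of the control libraries and 106 ± 2.76 CPM in those labelled IE-HuR-/-, higher in 3 of 3 libraries than in every control library. In enterocyte-like cells it had 17.6 ± 1.76 and 14.1 ± 0.897 CPM (SD, n = 3 each). The label change of Rbpj there was not called (−0.13, edgeR adjusted p = 0.0879). Without TMM the median log2 fold change of all genes in enterocyte-like cells was −0.20. The difference between the classes was not called without control replicate 1 or without the first or second library labelled IE-HuR-/-. Besides leaving out each library, its only alternative was a fit without TMM, in which it stayed called. The change of Rbpj in T or NK-like cells itself lost its call with DESeq2 (adjusted p = 0.353) and with doubled gate limits.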

How the results depend on the processing

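The label changes of the 9 member and class pairs called were recomputed 135 times in all, and 109 values kept direction and side of the threshold, 26 lost the threshold and 0 turned. Dll1, Jag1 and Hes1 held in enterocyte-like and all epithelial cells throughout. Notch2 in enterocyte-like cells lost its call with DESeq2 (0.56), without TMM (0.37), without the filter (0.52), with the replicate block (0.55), at 500 genes and 25% mitochondrial UMIs (0.48), at 2000 UMIs (0.53) and in thinned sums (0.45), and spanned 0.35 to 0.70 with 1 library left out. Atoh1 in goblet-like cells lost it with DESeq2 (0.28), without TMM (0.086), without the filter (0.25), with doubled gate limits (0.22) and without shared barcodes (0.25), and spanned 0.22 to 0.34 with 1 library left out. Rbpj in T or NK-like cells lost it with DESeq2 (0.27) and doubled gate limits (0.22), and spanned 0.26 to 0.30 with 1 library left out, and its difference between the classes spanned 0.31 to 0.45. Besides those given with the results, calls gained were Rbpj in all epithelial cells without TMM (−0.27), without the filter (−0.16) and without control replicate 3 (−0.21) and Notch2 there without control replicate 2 (0.60). The cause was not tested.

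Values near 0 that turned in sign were, in all epithelial cells, Notch1 without TMM (−0.039), with doubled limits (−0.15), at 500 genes and 25% mitochondrial UMIs (−0.063) and at 2000 UMIs (−0.19), Atoh1 without TMM (−0.074) and Dll4 at 2000 UMIs (0.0093). In enterocyte-like cells they were Dll4 without TMM (−0.0091) and Atoh1 with DESeq2 (0.0023), the replicate block (0.0028), doubled limits (0.031), 500 genes and 25% mitochondrial UMIs (0.072), 2000 UMIs (0.22) and thinned sums (0.025). In goblet-like cells it was Rbpj with doubled limits (0.038). In enteroendocrine-like cells they were Dll4 with doubled limits (0.088), without shared barcodes (0.048) and in thinned sums (0.060), and Dll1 (−0.021) and Rbpj (−0.070) in thinned sums. In myeloid-like cells it was Hes1 with DESeq2 (−0.044), without TMM (−0.0027), with the replicate block (−0.054) and without shared barcodes (−0.0018). Of the class contrasts, Dll1 (0.049) and Rbpj (0.39) in enteroendocrine-like and Atoh1 (0.16) in T or NK-like cells turned without TMM. With 1 library left out, the ranges that crossed 0 were Dll4 −0.10 to 0.018, Atoh1 −0.14 to 0.19 and Notch1 −0.020 to 0.17 in all epithelial cells, Notch1 −0.18 to 0.067 and Atoh1 −0.24 to 0.21 in enterocyte-like, Rbpj −0.18 to 0.12 in goblet-like, Dll4 −0.13 to 0.22 and Rbpj −0.048 to 0.41 in enteroendocrine-like, Rbpj −0.17 to 0.35 and Hes1 −0.64 to 0.19 in tuft-like, Dll1 −0.35 to 0.25 in T or NK-like, and Hes1 −0.42 to 0.58 and Rbpj −0.23 to 0.23 in myeloid-like cells.

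Counts of changed RNAs moved by over 1.5 times in the smaller classes. In progenitor-like cells (8) they were 15 with DESeq2, 64 without the filter, 15 with the replicate block, 17 with doubled limits, 5 at 500 genes and 25% mitochondrial UMIs and 5 at 2000 UMIs. In enteroendocrine-like cells (102) they were 453 without the filter, 180 with the replicate block, 25 with doubled limits, 59 at 500 genes and 25% mitochondrial UMIs, 166 without shared barcodes and 65 in thinned sums. In tuft-like cells (177) they were 86 with DESeq2, 286 without the filter, 305 with the replicate block, 12 with doubled limits and 109 in thinned sums. In T or NK-like cells (528) they were 277 with DESeq2 and 867 without the filter. In B or plasma-like cells (91) they were 34 with DESeq2, 177 without TMM, 59 at 2000 UMIs and 41 in thinned sums. In myeloid-like cells (27) they were 144 without the filter, 41 with the replicate block, 4 with doubled limits and 6 at 2000 UMIs. With 1 library left out they spanned 0 (without control replicate 3) to 189 (without control replicate 2) in progenitor-like, 9 (without IE-HuR-/- replicate 2) to 180 (without IE-HuR-/- replicate 3) in enteroendocrine-like, 95 to 240 in tuft-like, 228 (without IE-HuR-/- replicate 1) to 1142 (without control replicate 3) in T or NK-like, 27 to 131 in B or plasma-like and 4 to 57 in myeloid-like cells, and the RNAs whose change differed between T or NK-like and enterocyte-like cells 885 to 2889. In enterocyte-like cells 3784 RNAs were higher and 3747 lower with TMM and 1953 and 6242 without it, in goblet-like cells 1372 and 1104 against 757 and 2309, in all epithelial cells 3399 and 3856 against 2080 and 5688.

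Same-numbered libraries of the labels showed no sign of deviating together (r of 0.0503, −0.0969 and −0.116 over epithelial sums), and whether the numbers pair animals is not known. Of the called member changes the replicate block ended only that of Notch2 in enterocyte-like cells. Paneth-like cells could not be fitted under any setting. Depth limits the progenitor-like, B or plasma-like and myeloid-like classes, in which 3, 0 and 3 members were tested.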
